A study of Mus musculus with 8 samples.

Results

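The genes described here are the wound and companion layer keratins Krt6a, Krt6b, Krt16 and Krt17, 4 of the 18770 genes in the deposited expression table. They were chosen by name with their difference between treated and vehicle skin already known, and Krt6b had the largest fitted increase of the 15964 genes tested. Their differences between the groups are therefore given as a description. Whether each passed the threshold used for all genes is stated, but nothing is read from it. Messenger RNA was sequenced from back skin of male wildtype mice, labelled as C57BL/6 and 7 to 8 weeks old, at D4 after depilation. The methods of the paper give the strain as C57BL/6J. The tissue was dermis with hair follicles, from which the epidermis between the follicles had been removed. The 4 libraries of the vehicle group (VC) came from skin that received 65% ethanol, and the 4 libraries of the AP group came from skin that received Alpinetin, a plant flavonoid, dissolved in the same vehicle. Depilation was common to both groups, and no undepilated skin was analysed here. Library names such as VC.1 follow the columns of the table, which are not tied to particular mice, so the spread reported is that between these libraries. Where a sentence lists 4 values for a group, they stand in the order of the library numbers.

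Keratins build the intermediate filaments of epithelial cells as obligate pairs of a type II and a type I chain. Krt6a and Krt6b are type II chains that pair with the type I chains Krt16 and Krt17. They are found in the companion layer and outer root sheath of the hair follicle and in the nail, and keratinocytes at a wound edge switch them on.

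The libraries held between 6454563 reads in VC.4 and 11190113 reads in AP.3. Mitochondrially encoded genes took 54.3%, 44.9%, 42.1% and 52.3% of the reads in the VC libraries, against 11.1%, 7.85%, 5.32% and 10.3% in the AP libraries. The part of this difference in the results was not tested. AP.1 stood apart from the other AP libraries in several keratin measures below. Levels are normalized counts, that is, reads divided by 1 size factor for each library.

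Among the type II chains, Krt6b differed most. Its level was 0, 177, 39.6 and 15 normalized counts in the VC group, and 237, 3204, 9090 and 4915 in the AP libraries. Every AP library lay above every VC library, although AP.1 was close to VC.2. These values rest on 0, 120, 29 and 8 reads in the VC libraries, and on 327, 5942, 18244 and 6872 reads in the AP libraries. The mean was 58.0 ± 81.2 normalized counts in VC and 4362 ± 3698 in AP (SD, n = 4 each). The fitted log2 fold change, on the log2(value + 1) scale, was 7.03 with an SE of 1.42. It depends on the pseudocount because VC.1 had no read, and was 7.30 with a pseudocount of 0.5 and 6.34 with 5. Single libraries moved it further, to 5.63 without VC.1, 8.12 without VC.2 and 8.15 without AP.1. In bulk tissue, fewer cells of a type and less RNA per cell cannot be told apart.

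Krt6a, the more abundant type II chain in vehicle skin, was at 739, 2064, 1181 and 611 normalized counts in the VC group, against 945, 5010, 9685 and 8205 in the AP libraries. AP.2, AP.3 and AP.4 were above all VC libraries, whereas AP.1 lay within the VC range. The mean was 1149 ± 657 normalized counts in VC and 5961 ± 3872 in AP (SD, n = 4 each), with a log2 fold change of 2.10 (SE 0.64). Without AP.1 the log2 fold change was 2.84. With Krt6a and Krt6b summed to 1 feature it was 2.72.

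Krt16, a type I chain induced in wound keratinocytes, was at 81.9, 588, 276 and 71.3 normalized counts in the VC group, against 555, 3558, 7100 and 4836 in the AP libraries. The groups overlapped only through AP.1, which was slightly below VC.2. The mean was 254 ± 242 normalized counts in VC and 4012 ± 2731 in AP (SD, n = 4 each), with a log2 fold change of 4.02 (SE 0.80) that was 4.81 without AP.1.

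Krt17, a type I chain also made in the unwounded follicle, was at 5479, 5449, 6334 and 3017 normalized counts in the VC group, against 5012, 5726, 10607 and 8762 in the AP libraries. AP.3 and AP.4 were above all VC libraries, and AP.1 and AP.2 were within the VC range. The mean was 5070 ± 1429 normalized counts in VC and 7527 ± 2619 in AP (SD, n = 4 each), with a log2 fold change of 0.56 (SE 0.30). It was 0.73 without AP.1, 0.37 without AP.3 and 0.32 without VC.4. Per length, it was at 63.2%, 15.1%, 33.0% and 33.3% of its fellow type I chain Krt14 in the VC libraries and at 28.3%, 25.2%, 27.3% and 14.8% in the AP libraries. The groups overlapped on this scale, where the log2 difference was -0.47, less than the spread between the VC libraries (SD 0.84), and -0.14 without VC.1, -0.83 without VC.2 and -0.25 without AP.4.

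**Figure D1:**
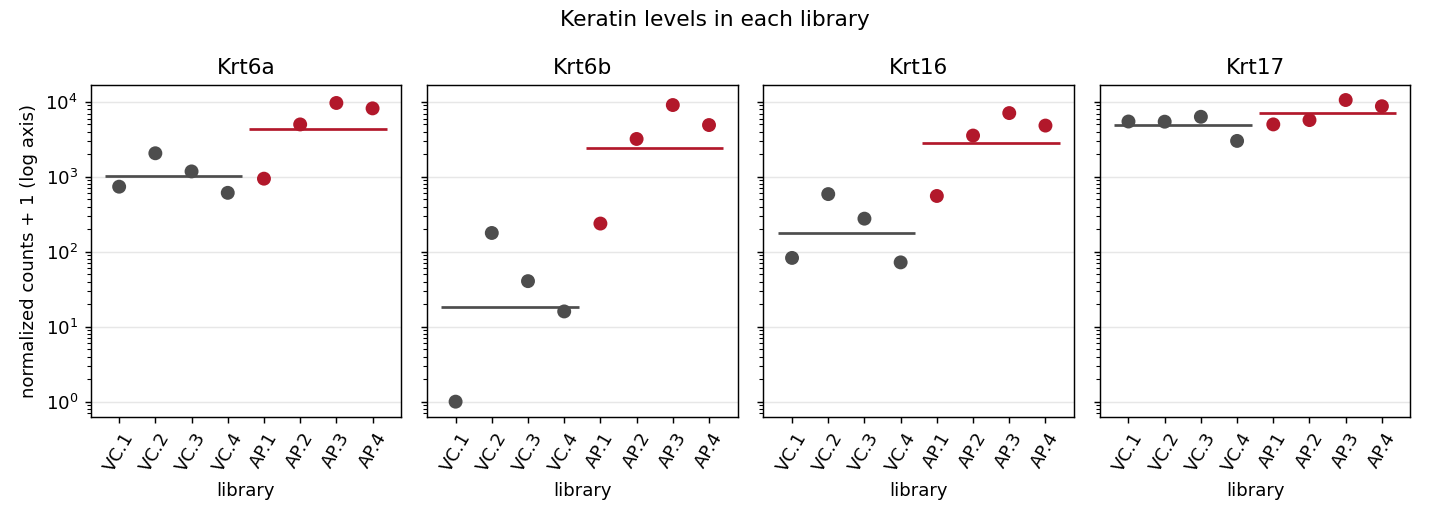
Normalized counts plus 1 of each keratin in the 4 VC (grey) and 4 AP (red) libraries, on a log axis, with horizontal lines at the group means on the log2 scale. AP.1 was the lowest AP library for all 4 genes, and Krt6b in VC.1 is at 0 counts.

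All 4 genes passed the filter on low values. Krt6b and Krt16 were among the genes called higher in AP at an adjusted p under 0.05, 2 of 4 members, where 6.33% of all genes tested were called higher, 4.0% lower and 10.3% in either direction. In 1 of 4 members, Krt6b, every AP library was above every VC library, and this held for 10.3% of all genes tested. The members were selected on this contrast, so nothing is read from either count. No member was called when AP.3 or AP.4 was left out or the intensity trend of the fit was dropped. Of all genes tested, 211 of 15712 were called higher without AP.3, 257 of 15745 without AP.4 and 376 of 15964 without the trend. The log2 fold changes were then 6.40 and 6.69 for Krt6b and 3.59 and 3.77 for Krt16 without AP.3 and AP.4, and did not change without the trend. Krt6a was called as well, 3 members in all, by edgeR, by DESeq2, with a pseudocount of 5, without AP.1 and without VC.2, and all 4 were called under total counts. Of all genes tested, edgeR called 1003 of 15964 higher, DESeq2 1667 of 17622 and the pseudocount of 5 1140 of 15964. Without AP.1 it was 1061 of 15719, and without VC.2 988 of 15768. Nothing is read from the member counts in these settings. Scaling by total counts moved the median over all genes by 0.84 on the log2 scale, and relative to that median Krt6a was at 2.07, Krt6b at 6.81, Krt16 at 3.99 and Krt17 at 0.53. The same scaling called 8670 genes higher and 65 lower, against 1011 and 639 with the deposited scaling. Total counts without the mitochondrially encoded genes called 959 higher and 540 lower, with log2 fold changes of 2.14 for Krt6a, 7.04 for Krt6b, 4.06 for Krt16 and 0.60 for Krt17.

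Per kilobase of the longest annotated transcript, the mean level in VC was highest for Krt17 with 3269 ± 921 normalized counts per kb, followed by Krt6a with 484 ± 277, Krt16 with 162 ± 154 and Krt6b with 25.9 ± 36.3 (SD, n = 4). In AP the order of mean levels per kb was Krt17 with 4853 ± 1689, Krt16 with 2564 ± 1745, Krt6a with 2513 ± 1632 and Krt6b with 1951 ± 1654. In AP, the mean levels of Krt16, Krt6a and Krt6b differed by less than their spread between libraries. Within every AP library Krt6b was nevertheless below both Krt16 and Krt6a, though nearly equal to Krt6a in AP.3. The lengths were not corrected for sequence shared with other genes, which differs between the members and is given below. The members together made up 12.6% ± 3.12 of the level per kb of all 49 keratins listed in VC and 12.9% ± 4.18 in AP. Krt17 alone made up 10.7% ± 3.47 of the level of all 49 keratins in VC and 5.73% ± 1.37 in AP.

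Relative to Krt5, the basal type II keratin, Krt6a was nearly constant in vehicle skin, at 5.80%, 5.70%, 5.16% and 5.53% of the Krt5 level per kb in the VC libraries. In the AP libraries it was at 3.80%, 21.9%, 22.6% and 12.5% of Krt5. AP.1 was thus below all VC libraries on this scale, and the other AP libraries were above them. The log2 difference on this scale was 1.16, and 1.72 without AP.1.

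The ratio of type II to type I chains compared Krt6a plus Krt6b with Krt16 plus Krt17, each per length. It was 0.0869, 0.244, 0.121 and 0.133 in the VC libraries and 0.141, 0.594, 0.716 and 0.647 in the AP libraries. As counted, type I levels exceeded type II levels in all 8 libraries, and AP.1 lay within the VC range. A larger part of the type II than of the type I transcripts also occurs in other genes, as given below. Reads from such parts cannot be assigned to 1 gene, and their effect on this ratio was not tested. The mean log2 ratio was -2.88 ± 0.62 in VC and -1.17 ± 1.11 in AP (SD, n = 4 each), a difference of 1.71 that was 2.26 without AP.1.

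Krt6a over Krt16 was 5.95, 2.32, 2.83 and 5.66 per length in the VC libraries and 1.12, 0.929, 0.900 and 1.12 in the AP libraries. All AP libraries, AP.1 included, were below all VC libraries and close to equal counted levels of the chains. The counted Krt6a level is limited by shared sequence and by the overlapping gene Gm49428, both described below. The mean log2 ratio was 1.95 ± 0.69 in VC and 0.02 ± 0.17 in AP (SD, n = 4 each). Krt6a over Krt17 was 0.0881, 0.248, 0.122 and 0.132 in the VC libraries and 0.123, 0.572, 0.597 and 0.612 in the AP libraries, again with AP.1 inside the VC range. The mean log2 ratio differed by 1.55 between the groups, and by 2.11 without AP.1. Krt6b over Krt16 was at most 0.0467 in VC.1, taking 3 reads as the limit that a count of 0 allows, and 0.211, 0.101 and 0.147 in VC.2 to VC.4. In the AP libraries it was 0.299, 0.631, 0.896 and 0.712, above the VC libraries.

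The share of Krt6b in the Krt6a and Krt6b level per length was 0 of 406 reads in VC.1, which allows up to 0.784% when 3 reads are taken as the limit, with a 95% Wilson upper bound of 0.994%. It was 8.35% (95% Wilson interval 7.04 to 9.90) in VC.2, 3.44% (2.40 to 4.89) in VC.3 and 2.54% (1.29 to 4.93) in VC.4. In AP.1 it was 21.0% (19.1 to 23.1), in AP.2 40.4% (39.7 to 41.2), in AP.3 49.9% (49.4 to 50.4) and in AP.4 38.9% (38.2 to 39.6). All AP libraries were above all VC libraries, with means of 37.6% ± 12.05 and 3.58% ± 3.50 (SD, n = 4 each). The AP mean was 43.1% without AP.1, and the VC mean was 1.99% without VC.2. The intervals cover counting error only, and not reads that match both genes.

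**Figure D2:**
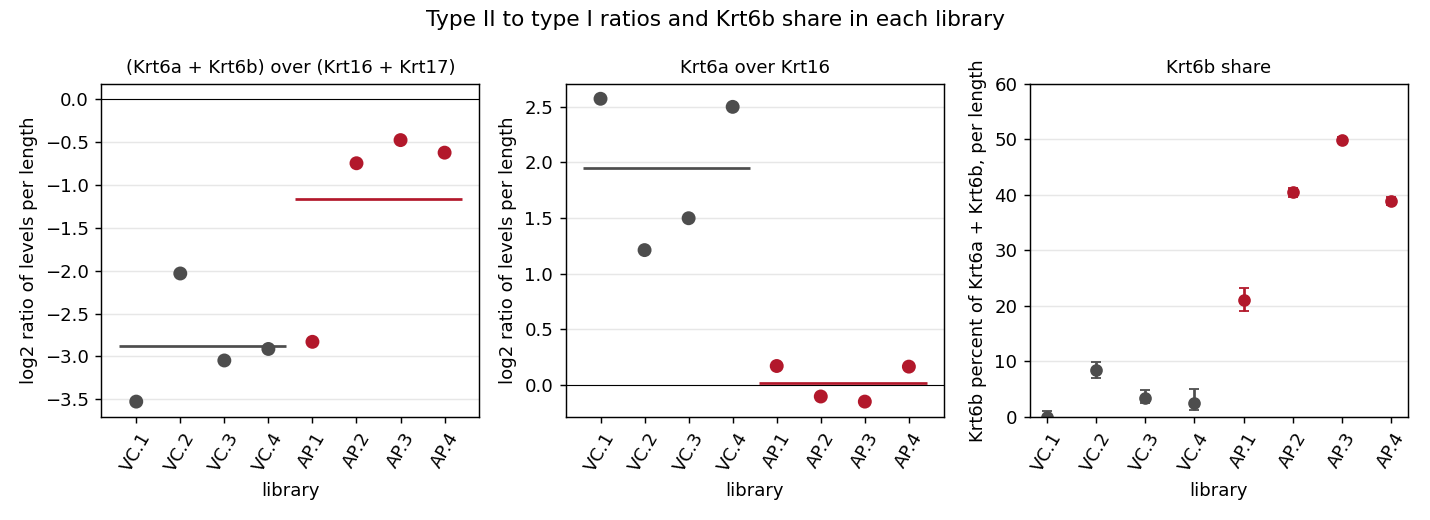
Left and middle, log2 ratios of levels per length in each VC (grey) and AP (red) library, with lines at group means; right, the Krt6b percent of the Krt6a and Krt6b level per length, with 95% Wilson intervals. AP.1 is inside the VC range for the summed ratio at 0.141, and outside it for Krt6a over Krt16 and for the Krt6b share.

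Krt6a (ENSMUSG00000058354) and Krt6b (ENSMUSG00000023041) lie side by side on chromosome 15 of GRCm38, at 101689910 to 101694307 and 101676023 to 101680287, 9623 bases apart on the minus strand. Krt16 (ENSMUSG00000053797) and Krt17 (ENSMUSG00000035557) lie on chromosome 11 at 100246091 to 100248902 and 100256217 to 100261029, also on the minus strand and 7315 bases apart. The coding sequences of Krt6a and Krt6b were identical at 1625 of 1662 aligned bases (97.8%), against 960 of 1296 (74.1%) for Krt16 and Krt17. Of the 50-base words of the Krt6b transcript, 44.5% also occur in Krt6a transcripts, and of those of Krt6a 43.6% occur in Krt6b. With 150-base words these shares were 18.8% and 18.5%. Reads that lie wholly in such stretches cannot be assigned to 1 gene, so the split between Krt6a and Krt6b is uncertain to a degree that depends on the read length, which is not given in the sources used here. The share of 50-base words found in any other gene was 62.0% for Krt6a, 50.1% for Krt6b, 37.6% for Krt16 and 3.99% for Krt17. With 150-base words it was 30.25%, 18.8%, 18.4% and 0%. For Krt16 the shared 50-base words were those of the pseudogene Gm11597 (25.2%) and of Krt14 (12.4%). The stretch of 90 coding bases with the most differences between Krt6a and Krt6b, coding positions 788 to 877 in both, is shown because only such differences separate their reads. Capitals mark the 12 bases that differ.
Krt6a: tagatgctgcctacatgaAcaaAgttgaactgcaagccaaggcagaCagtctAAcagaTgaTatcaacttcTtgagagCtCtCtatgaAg
Krt6b: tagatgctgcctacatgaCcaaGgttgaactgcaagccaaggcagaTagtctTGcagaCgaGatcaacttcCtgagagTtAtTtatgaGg

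Gm49428, an antisense gene on the plus strand, lies inside Krt6a at 101690309 to 101691941. It was at 395, 1111, 538 and 317 normalized counts in the VC group, against 491, 2696, 4678 and 3952 in the AP libraries. Its values followed those of Krt6a over the libraries (Pearson r = 0.997 after subtracting group means, 8 libraries). Whether counting used strand is not given in the sources used here, and without strand its reads and those of Krt6a cannot be told apart.

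Krt75, a companion layer keratin at 101563345 to 101573904, was at 261 ± 63.9 normalized counts in VC and 332 ± 194 in AP (SD, n = 4 each; limma adjusted p = 0.735). On the log2 scale Krt5 differed by 0.94 (SE 0.47, limma adjusted p = 0.196), Krt14 by 1.02 (SE 0.53, adjusted p = 0.212) and Krt71 by 2.01 (SE 0.61, adjusted p = 0.0575). Krt71 was called by edgeR, by DESeq2 and, at 2.50, without AP.1, and Krt75, Krt5, Krt14 and Krt71 were all called under total counts. Krt42, next to Krt17, was at 0 in all VC libraries and at 2.18, 1.08, 2.99 and 5.01 normalized counts in the AP libraries, too few to be tested.

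**Figure D3:**
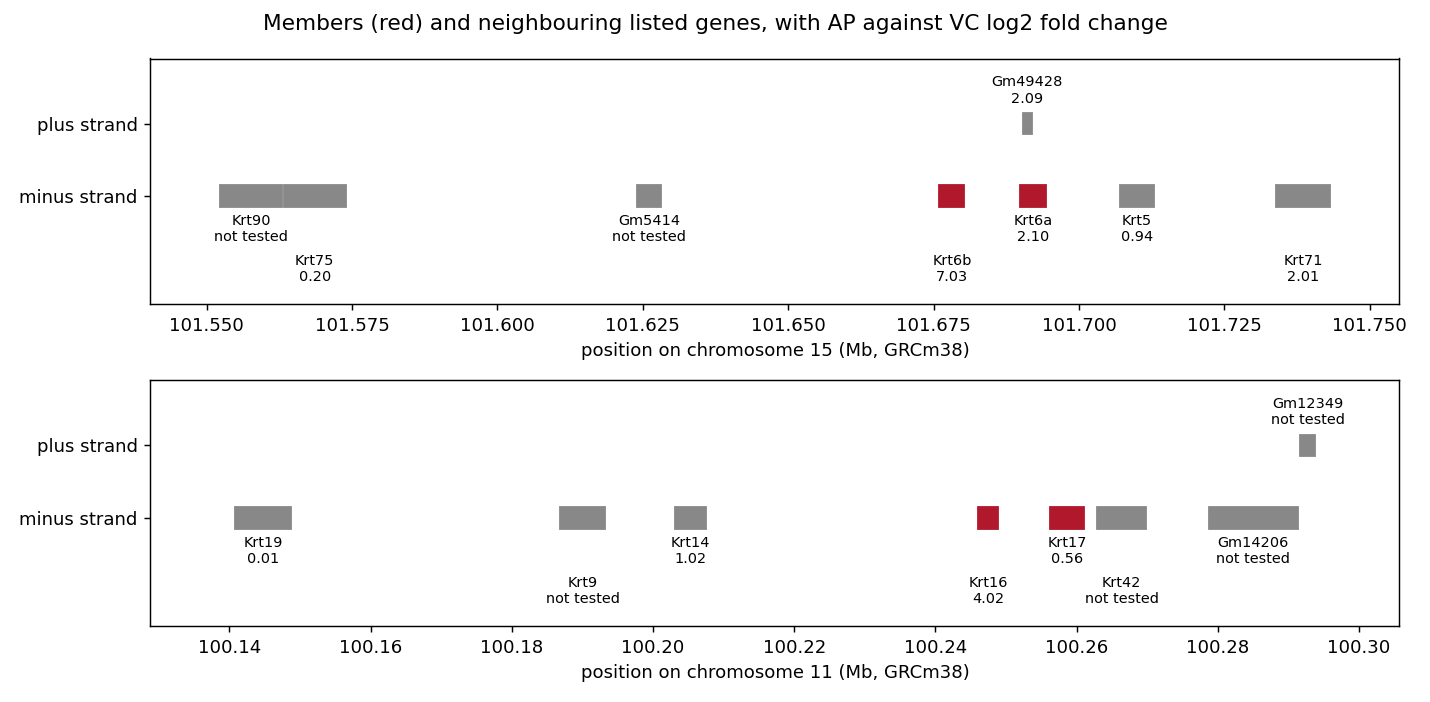
Genes to scale on chromosomes 15 (top) and 11 (bottom) of GRCm38, drawn by strand, with the 4 members in red and the listed neighbours in grey. The number under each name is the AP against VC log2 fold change, from 7.03 for Krt6b to 0.01 for Krt19.

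The genes whose library-to-library pattern was most like that of the 4 members were found after subtracting each group's mean, so that the group difference did not enter. Of 11253 genes, Cdyl (r = 0.984), Abhd13 (r = 0.983), Btaf1 (r = 0.980), Cldnd1 (r = 0.979) and Trmt10a (r = 0.973) had the highest Pearson r with the members' mean over the 8 libraries. For single members, the nearest gene was Cdyl for Krt16 (r = 0.985) and E2f2 for Krt17 (r = 0.982). By Spearman rank correlation only 2 of the 5 genes nearest the mean were again among the nearest 5. Among the members, r was 0.96 for Krt6a and Krt16, 0.88 for Krt6b and Krt16, 0.81 for Krt6a and Krt6b and 0.41 for Krt6b and Krt17. These correlations are over 8 libraries and describe them only.

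Among other genes of the same cell layers, 4 of 7 companion layer and upper follicle genes were higher in AP by limma with Benjamini-Hochberg adjustment, and none was lower. The companion layer keratin Krt75, also on this list, was not among those called, at 0.20 on the log2 scale (SE 0.35, adjusted p = 0.735). The median over the list was 1.13 on the log2 scale, beside 0.06 over all genes tested. The protease inhibitor Cst6 was at 662, 566, 429 and 379 normalized counts in the VC group, against 1335, 1830, 2130 and 1892 in the AP libraries (adjusted p = 0.00231). Lrig1, a stem cell marker of the upper follicle, was higher by 1.13 on the log2 scale (SE 0.18, adjusted p = 0.00896). Krt79 differed by 0.47 (SE 0.30, adjusted p = 0.321). It was at 7726 normalized counts in VC.2, the highest of the 8 libraries, and was called at 0.82 without VC.2 and at 1.34 under total counts. Of the inner bulge signals 1 of 3 was called, Timp3, which was higher by 1.09 on the log2 scale (SE 0.20, adjusted p = 0.0115). Of 8 outer root sheath and bulge genes 0 were called by limma, 0 had an unadjusted p under 0.05 and 0 were called by edgeR or DESeq2; Krt15 differed by 0.25 on the log2 scale (SE 0.36).

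Other wound keratinocyte genes were called higher for 8 of 22, with a median log2 fold change of 1.34. The cornified envelope gene Sprr1b was at 9.10, 20.7, 39.6 and 13.1 normalized counts in the VC group, against 42.1, 259, 456 and 516 in the AP libraries (log2 fold change 3.59, adjusted p = 0.0165). The call was lost without AP.3 or AP.4, at log2 fold changes of 3.25 and 3.20, and without the intensity trend. Like the members, it was lowest in AP.1 among the AP libraries. Of 12 known regulators of these keratins, 4 were higher in AP. The AP-1 transcription factor genes Fos (2.56, SE 0.20, adjusted p = 0.000634), Fosb (3.29, SE 0.38, adjusted p = 0.00231), Junb (1.83, SE 0.21, adjusted p = 0.00231) and Jun (1.19, SE 0.17, adjusted p = 0.00628) were the ones called, by log2 fold change. The other AP-1 genes of the list, Jund, Fosl1 and Fosl2, were not called. Jund, the most abundant of the 12, was at 3000, 2243, 2036 and 3570 normalized counts in the VC group. In the AP libraries it was at 3579, 2041, 2133 and 2432. Fos was at 2384 normalized counts in AP.1, its highest library, so it did not follow the members' low values there.

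Markers of the suprabasal epidermis between the follicles, the layer that was removed from the tissue, were present in all libraries. Of 18, 13 were higher in AP, with a median log2 fold change of 2.66. Their summed level was 8342, 16334, 11514 and 8153 normalized counts in the VC group, against 51691, 47361, 142261 and 192152 in the AP libraries. Krt10, the most abundant of them, was higher by 3.85 on the log2 scale (SE 0.50, adjusted p = 0.00367), and 1 of the 18 was at 0 in VC.4 and 0 were at 0 in the other libraries. The part of these cells in the levels of Krt6a, Krt6b, Krt16 and Krt17 was not tested. Of 10 basal epidermis genes 6 were higher in AP, among them the integrin Itga6 (log2 fold change 1.92, SE 0.31, adjusted p = 0.00896).

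Skeletal muscle genes were high in the VC libraries and AP.1 and low in the other AP libraries. Their summed level was 39710, 58130, 28253 and 32228 normalized counts in the VC group, and 51656, 7663, 4583 and 10107 in the AP libraries. Acta1 was the most abundant, and no gene of the list was at 0 in any library. None of the 6 was called by limma, edgeR or DESeq2, although 5 had an unadjusted p under 0.05 by limma, as had 4840 of all 15964 genes tested. These counts are with AP.1 included. Without AP.1, 6 genes over all lists were called lower by limma, against 0 with all libraries. The part of muscle in the low keratin values of AP.1 was not tested.

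Of the remaining lists, other type I keratins were called higher for 2 of 17 tested and other type II keratins for 5 of 15, including Krt80 (log2 fold change 1.73, SE 0.26, adjusted p = 0.00648). Inner root sheath and hair shaft genes were called for 2 of 18, with Tchh at 3.18 (SE 0.57, adjusted p = 0.0113). For these lists, in the same order, edgeR called 3, 6 and 4 genes and DESeq2 5, 9 and 8. An unadjusted p under 0.05 by limma was reached by 7, 8 and 9. Leukocyte genes (0 of 8), fibroblast genes (0 of 6) and sebaceous gland genes (0 of 6) were not called by limma, with 4, 1 and 1 of them at an unadjusted p under 0.05. By edgeR 0 of each were called, and by DESeq2 2, 0 and 1. Over all genes tested, 4840 of 15964 had an unadjusted p under 0.05 by limma. Of all genes, edgeR called 1715 of 15964 and DESeq2 3061 of 17622, in either direction.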

How the data were processed

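Dermis with hair follicles of 4 VC and 4 AP mice was sequenced. The authors aligned reads to mm10 with STAR, counted them per gene and deposited a signal of normalized counts, that is, reads divided by a DESeq2 size factor. HTSeq is named in the submitters' processing notes and another counter in the methods. Columns of the authors' own comparison (mean, log2 fold change, its error, statistic and p-values) were not used. All 150160 values (100%) were whole multiples of 1 step per library within 0.1, which gave back the reads.

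AP was compared with VC by limma 3.58.1 in R 4.3.3, with an intensity trend, on log2(value + 1), for the 15964 genes that reached 3 normalized counts in 4 or more of the 8 libraries, with Benjamini-Hochberg adjusted p under 0.05 called. edgeR 4.0.16 and DESeq2 1.42.0 were run on the recovered reads and called 1715 and 3061 genes. The procedure was tested on simulated data. Alternatives were other pseudocounts, filters, scalings, models, transcript lengths and leaving out each library. Lengths, positions and sequences came from GENCODE M21 (GRCm38). Of the 4 members 0 matched the RefSeq promoter table (GRCm38.p6): Krt6a, Krt6b, Krt16 and Krt17. Python 3.11.15 and scipy 1.17.1 gave the Wilson intervals.

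The members and the gene lists were chosen with earlier results of these data known. Named genes were the 4 members, the 5 nearest in pattern to each and to their mean, up to 8 called genes of each list with its defining markers, and 3 neighbours on each side in the genome. 1 gene that this rule names is not reported here.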

Additional observations from a re-analysis of the deposited data

Results flagged for a closer look

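In each group of 4 libraries the highest and the lowest value were compared with their nearest neighbour, relative to the range of the group, for 70 groups. For independent groups of normally distributed values, chance gives a library apart in about 1 in 20. A library apart was found in 8. These groups share libraries and genes, so that number cannot be set against chance and no excess is read from it. AP.1 was apart from the other AP libraries in the log2 ratio of type II over type I chains (-2.83), of Krt6a over Krt17 (-3.02) and of Krt6b over Krt17 (-4.93). The AP mean of the last was -2.10, and -1.16 without AP.1. It was also apart in the summed normalized counts of skeletal muscle genes (51656) and leukocyte genes (13110). VC.2 was apart from the other VC libraries in the summed normalized counts of companion layer and upper follicle genes (9335), sebaceous gland genes (45672) and keratin regulators (6538). No cause was tested.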

How the results depend on the processing

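Under all alternatives run, Krt6a, Krt6b and Krt16 stayed higher in AP and moved by less than their spread between libraries. Krt17 had a log2 fold change of 1.43 under total counts and -0.47 relative to Krt14 per length, an alternative added after seeing the data. The cause was not tested. Relative to Krt5 the type II chains had smaller differences of 1.16 (Krt6a) and 5.76 (Krt6b), as had Krt16 relative to Krt14 (2.99). The Krt6b value rests in part on VC.1, which had no read, and was 4.81 without VC.1 and 6.70 without AP.1. Also added after seeing the data were these values, those of single pairs and of reference keratins with each library left out, the longest coding transcript, and leaving out AP.1 and VC.2 together. These libraries were picked for their own keratin values, so nothing rests on that setting: the log2 fold changes were then 3.18 (Krt6a), 9.24 (Krt6b), 5.39 (Krt16) and 0.78 (Krt17), all larger than with 8 libraries, and 8 listed genes were called lower.

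Genes called numbered 1650 (1011 higher, 639 lower). They were 3061 (1667, 1394) with DESeq2, 592 (376, 216) without the intensity trend and 8735 (8670, 65) under total counts. Leaving out 1 library gave 307 to 1873 (211 to 1061 higher, 96 to 812 lower), with the fewest without AP.3. Listed genes called were 41, all higher. They were 23 without the trend and 99 under total counts, and 3 were lower with DESeq2. Leaving out 1 library gave 21 to 49 in either direction, 21 to 43 higher and 0 to 6 lower. Of 36 named list genes called, 18 were still called without AP.3 and 18 without AP.4, and 0 reversed.

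Among genes named or neighbouring, E2f2 reversed without AP.3, AP.4 or VC.4 (-0.16 to 0.28 over the libraries left out). Krt19 reversed with DESeq2 (-0.85), edgeR (-0.83), a pseudocount of 5 (-0.25), without AP.1 and VC.2 (-0.96) and without some single libraries (-1.01 to 0.70), and Krt75 without AP.3 (-0.14 to 0.44 over the libraries left out). Krt6b in VC.1 is limited by depth, since 3 reads there are 5.46 normalized counts.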

Other observations

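Krt6a and Krt16 were closer to equal counted levels per length in AP.1 (ratio 1.12) than in any VC library (2.32 to 5.95), although AP.1 had VC-like levels of both genes. Its Krt6b share of 21.0% was also above the highest VC share, 8.35% in VC.2, while its Krt6a level of 945 normalized counts was below the 2064 of VC.2.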
